A study of Mus musculus with 6 samples.

Results

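miR-184 was followed in the small RNA of mature sperm taken from the cauda epididymis of mice. Its members were found by name, as every row of the deposited miRNA table with the base name mmu-miR-184, and 1 of the 778 features met this rule, the 3p arm (miR-184-3p). The 5p arm was not analysed here. The study set 3 sperm samples from 8-week-old C57BL/6 males made depressed by stress (stress samples) against 3 samples from normal males of the same age and strain (normal samples), to ask whether the small RNA content of sperm differs when the male has been depressed by stress. The labels name no stress protocol, no genetic change, and no agent given to either group, and they do not say whether the samples came from separate animals, from pooled animals or from repeated libraries. Any p-value here therefore reflects how far these samples lie apart, and part of that spread may be technical. miR-184 was chosen by its counts, shares and fold changes in this very comparison, so its differences between stress and normal samples are given as a description, without a test.

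A mature miRNA guides an Argonaute protein to messenger RNAs that pair with its seed, the bases 2 to 8 from its 5′ end, and lowers the output of those messages. miR-184 is conserved from insects to mammals and is best known as an abundant miRNA of the cornea and the lens. In mouse pancreatic islets it represses Argonaute2, in mouse neural stem cells it restrains Numblike, and in Drosophila it is needed for the female germline and the early embryo. Its gene lies in the same region as Rasgrf1, an imprinted gene expressed from the paternal allele in mouse brain, and miR-184 itself has been described as paternally expressed there.

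The miR-184 strands and the precursor they are cut from are shown because the counts rest on reads that match the 3p arm. Capitals mark the seed in the mature strands and the whole 3p arm in the hairpin, and sequences are from RefSeq (GRCm38.p6).
miR-184-3p: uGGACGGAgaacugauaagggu
miR-184-5p: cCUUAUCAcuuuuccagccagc
mir-184 hairpin: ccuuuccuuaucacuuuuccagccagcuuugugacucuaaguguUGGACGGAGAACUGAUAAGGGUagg
The deposited table gives the same 22 bases for miR-184-3p. Of 1678 other mature mouse miRNAs in the RefSeq table, 0 shared its bases 2 to 8 and 0 held those 7 bases at any position. The nearest 4 of them, miR-483-5p included, were 8 edits away, so no near-identical copy stood beside it to share reads with, and its counts in the deposited table were whole numbers in all 6 samples. In the 69-base hairpin the 3p arm spans bases 45 to 66 and the 5p arm bases 6 to 27. RNAfold predicted a fold of −29.0 kcal per mol in which 17 bases of the 3p arm paired with the 5p arm.

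Mir184 lies on the minus strand of chromosome 9, at 89802260 to 89802328 in GRCm38, with the 3p arm at 89802263 to 89802284. In the GENCODE M21 annotation 0 other genes overlap it, so it is intergenic. The noncoding 1700017I07Rik begins 542 bases away on the opposite strand, and 4930524O08Rik, another noncoding gene, 24191 bases away. The nearest protein-coding genes are Ankrd34c, 63785 bases away, and Tmed3, 97192 bases away, both on the other side. Rasgrf1, which encodes a guanine nucleotide exchange factor for Ras, begins 107580 bases away. The build used by the authors is not given in the sources used here, and these positions come from matching the name and the sequence. The nearest other miRNA on chromosome 9 in the RefSeq table was 1476481 bases away, so miR-184 has no close miRNA neighbour.

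The samples held 1010203 to 3067208 miRNA reads and 442 to 567 detected miRNAs. Normal replicate 3 was the deepest library and stood apart in its ratio of miRNA reads to estimated tRNA-derived reads, at 2.67. The other 5 samples lay between 0.367 and 0.835. Results for miR-184 are therefore also given without normal replicate 3. The tRNA-derived reads were estimated for each sample by itself, so an error there would move the ratio of that sample alone. A list of 22 male germ cell miRNAs had 19 tested features and together made up 7238 to 8777 reads per 1000000 miRNA reads (RPM) in stress and 6856 to 9007 RPM in normal samples. Its member miR-34c-5p, named after its values were seen, stood at 778, 774 and 598 RPM in stress replicates 1 to 3. In normal replicates 1 to 3 it stood at 231, 492 and 429 RPM. A rise without overlap is common on this scale, where 134 of the 236 tested miRNAs (56.8%) were higher in every stress sample.

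miR-184-3p was lower in stress than in normal sperm as a share of the miRNA reads. It had 726, 1133 and 756 reads in stress replicates 1 to 3 and 1685, 1979 and 3498 reads in normal replicates 1 to 3. This was 694 RPM (95% exact binomial interval 645 to 746), 744 (701 to 789) and 748 (696 to 804) in stress replicates 1 to 3, against 1556 (1482 to 1632), 1778 (1701 to 1858) and 1140.5 (1103 to 1179) in normal replicates 1 to 3. The 3 stress samples lay close together and below every normal sample, and the normal samples were spread, with replicate 2 highest and replicate 3 lowest. The group means were 729 ± 30.1 RPM in stress and 1491 ± 324 RPM in normal samples (SD, n = 3 each), 2.05-fold lower in stress. The intervals cover counting error only, since the reads carry no molecular identifiers. Of the 236 miRNAs with enough reads to be tested, 13 were lower in every stress sample than in every normal sample on this scale, a background of 5.51%, while 134 (56.8%) were higher in every stress sample. In a bulk sample, fewer cells of a type that carry miR-184 and less miR-184 per cell cannot be told apart.

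**Figure D1:**
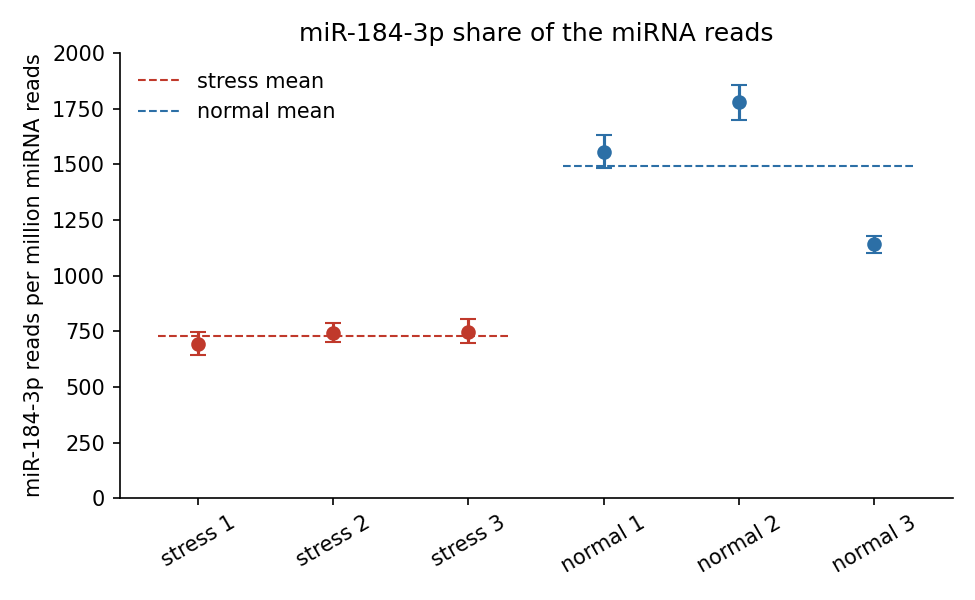
miR-184-3p reads per 1000000 miRNA reads (y axis) in each of the 6 samples, with 95% exact binomial intervals as bars and group means as dashed lines. The stress samples lie between 694 and 748 and the normal samples between 1140.5 and 1778.

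In the order of abundance miR-184-3p ranked 56th, 51st and 51st in stress replicates 1 to 3 and 31st, 29th and 37th in normal replicates 1 to 3. Averaged over the 6 samples it was the 39th most abundant miRNA, at 0.0694% to 0.0748% of the miRNA reads in stress and 0.114% to 0.178% in normal samples. For each of its reads there were 552, 570.5 and 542 reads of miR-148a-3p, the most abundant miRNA of these sperm, in stress replicates 1 to 3, against 216, 281 and 408 in normal replicates 1 to 3.

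The size of the decrease depended on what the reads were scaled to, and its direction did not under the 7 scalings computed. With trimmed mean of M-values (TMM) scaling, which takes most miRNAs as unchanged, miR-184-3p stood at 539, 599 and 544 counts per 1000000 (CPM) in stress replicates 1 to 3 and at 2014, 2603 and 1327 CPM in normal replicates 1 to 3. The means were 560.3 ± 33.4 CPM in stress and 1981 ± 639 CPM in normal samples (SD, n = 3 each), and the edgeR estimate was −1.82 ± 0.30 (SE) on the log2 scale. The lowest normal sample was 2.22 times the highest stress sample. On this scale 49 of the 236 miRNAs (20.8%) were lower in every stress sample than in every normal sample. Scaled to the sum of all miRNA reads the estimate was −1.03 ± 0.27, and the median of the tested miRNAs then stood at 0.76 in place of 0.00. Relative to that median miR-184-3p lay at −1.82 with TMM and at −1.79 with the miRNA total. A change of scaling moves all fold changes by nearly the same amount. This distance, and the place of miR-184-3p as 10th from the lowest of 236 fold changes with both, could therefore hardly change.

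Other small RNA classes of the same libraries gave further denominators. Per 1000 recovered reads of PIWI-interacting RNAs (piRNAs, germline small RNAs that silence transposons) there were 7.19, 14.8 and 10.4 reads of miR-184-3p in stress replicates 1 to 3 and 22.9, 26.0 and 40.6 in normal replicates 1 to 3. Per 1000000 estimated reads of tRNA-derived small RNAs (tsRNAs) the values were 304, 621 and 274 in stress replicates 1 to 3, against 832, 846 and 3043 in normal replicates 1 to 3. The groups did not overlap on either scale. How many of the other tested miRNAs were also lower in every stress sample on these scales was not counted. The order within the normal group turned round. Normal replicate 3 was the lowest normal sample among miRNA reads and the highest against both other classes. The tsRNA reads are an estimate from a common step between the lowest values of each sample, 100 steps being taken as 1 read. Only 23 to 31 of 66 to 85 low values per sample then came out as whole reads within 0.001. An error in the step would change the depth of that sample by a factor of its own. Scaled to the sum of the 3 classes the estimate was −1.38 ± 0.63, and 16 of 236 miRNAs (6.78%) were lower in every stress sample. On that scale miR-184-3p stood at 205, 331 and 197 per 1000000 reads in stress replicates 1 to 3 and at 530, 561 and 813 in normal replicates 1 to 3, so stress replicate 2 and normal replicate 3 stood above the others of their groups. With RLE and upper-quartile factors, the miRNA reads outside let-7 and miR-148a-3p, and the sum of miRNA and piRNA reads, miR-184-3p was also lower in every stress sample, against backgrounds of 20.3%, 19.1%, 16.9% and 7.2% of the tested miRNAs. Without normal replicate 3 the TMM estimate was −2.02 ± 0.27, and without any 1 of the 6 samples it lay between −2.02 and −1.56.

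**Figure D2:**
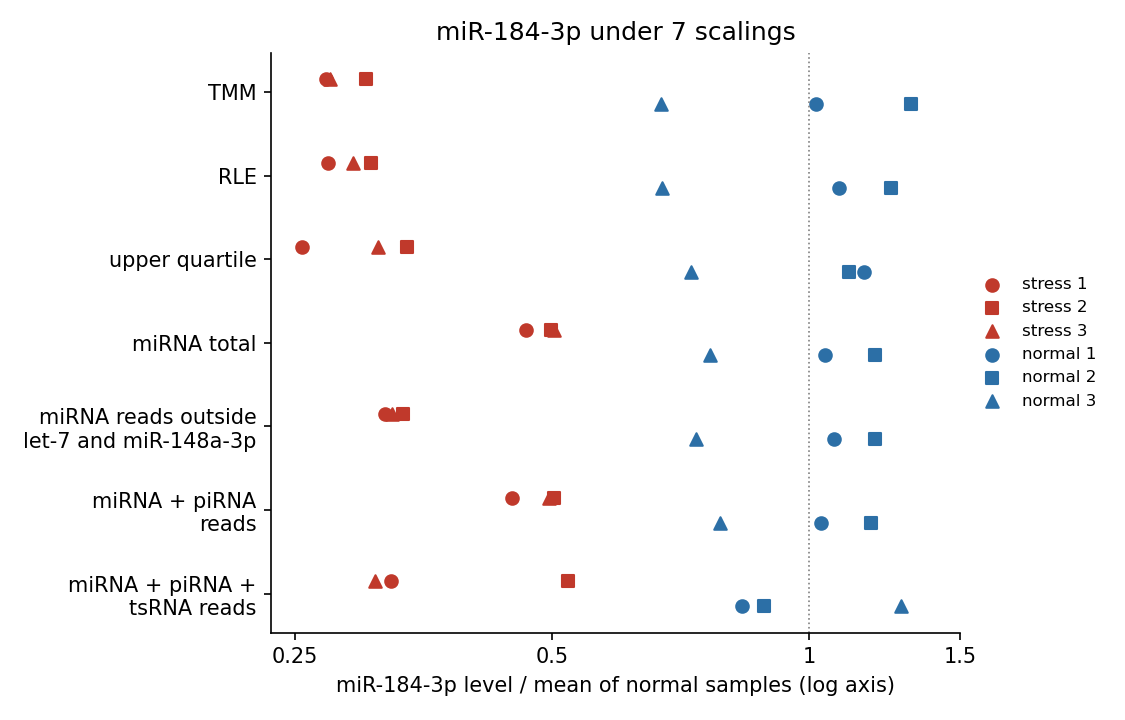
miR-184-3p level of each sample divided by the mean of the normal samples (x axis, log scale) under 7 scalings (rows); colours give the group and symbols the replicate number. In each row the 3 stress samples lie left of the 3 normal samples, and normal replicate 3 moves from the lowest to the highest normal sample when tsRNA reads enter the denominator.

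How alike the samples of a group were in miR-184-3p depended on the scale. The SD of the miR-184-3p level on the log2 CPM scale was 0.08 in stress and 0.49 in normal samples. The median SD of the 236 tested miRNAs was 0.23 in stress and 0.44 in normal samples, so on this scale the stress group was the narrower one for the tested miRNAs as a whole too. Among the 39 other miRNAs within 1.5 log2 CPM of its level, 7 had a smaller SD in stress and 27 a smaller SD in normal samples. As a coefficient of variation of the share of miRNA reads, its spread was 4.13% in stress and 21.7% in normal samples, and counting error alone gives 2.97% to 3.71% and 1.69% to 2.44% in single samples of these groups. With upper-quartile factors the coefficient of variation was 14.2% in stress and 23.7% in normal samples. The order turned round on scales that use the piRNA table alone or all 3 tables: it was 35.5% in stress and 31.7% in normal samples per piRNA read, and 30.7% in stress and 24.5% in normal samples with the sum of the 3 classes. Per tsRNA read it was 48.1% in stress and 80.8% in normal samples.

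Among the 236 tested miRNAs, edgeR's quasi-likelihood test called 24 lower (10.2%) and 6 higher (2.54%) in stress at an adjusted p of 0.05 with TMM scaling, 10 lower (4.24%) and 96 higher scaled to the miRNA total, and 3 lower (1.27%) and 3 higher scaled to the sum of the 3 classes. miR-184-3p had the 10th lowest fold change of the 236, and the 5th lowest of the 43 miRNAs that averaged 1000 RPM or more. In mean TMM-scaled level 29 of the 236 (12.3%) were at least 2-fold lower in stress.

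**Figure D3:**
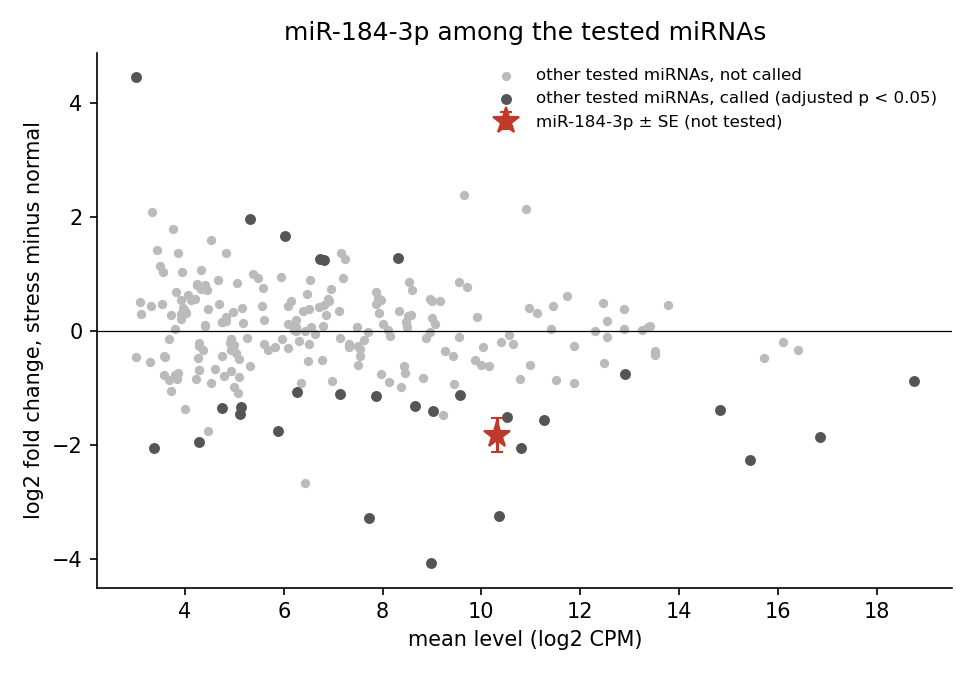
Log2 fold change, stress minus normal (y axis, TMM scaling), against mean level in log2 CPM (x axis) for the 236 tested miRNAs; dark points passed an adjusted p of 0.05 in edgeR, and the star is miR-184-3p with its SE. miR-184-3p lies at −1.82, in the upper part of the level range and low in the cloud.

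The miRNAs nearest to miR-184-3p in abundance did not move as a block. The 4 next above it were miR-92a-3p (a member of the growth-promoting miR-17-92 cluster), miR-672-5p, miR-7a-5p (an islet and brain miRNA) and miR-423-5p. Of these miR-672-5p fell by 2.04 ± 0.34 (SE) on the log2 scale and miR-423-5p by 1.51 ± 0.30 (adjusted p = 0.0044 and 0.0078 in edgeR), while miR-92a-3p stood at −0.07 ± 0.27 and miR-7a-5p at −0.19 ± 0.27 (adjusted p = 0.86 and 0.65 in edgeR). The 4 next below were miR-148b-3p, miR-669c-5p, miR-465c-5p and miR-30a-3p. miR-669c-5p, from the imprinted Sfmbt2 intron cluster, fell by 3.25 ± 0.50 (adjusted p = 0.0044 in edgeR). The other three did not pass, at −0.61 ± 0.28 for miR-148b-3p, −0.29 ± 0.28 for miR-465c-5p and 0.26 ± 0.32 for miR-30a-3p (adjusted p = 0.16, 0.51 and 0.61 in edgeR). Scaled to the miRNA total miR-672-5p and miR-669c-5p were still called lower (adjusted p = 0.011 and 0.0082 in edgeR) and miR-423-5p was not (adjusted p = 0.057). Scaled to the sum of the 3 classes, miR-669c-5p was called (adjusted p = 0.0034 in edgeR) and miR-672-5p was not (adjusted p = 0.26).

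A ratio of 2 miRNAs within a library needs no scaling factor. Of the 231 other tested miRNAs with reads in every sample, the ratio of miR-184-3p to the other was lower in every stress sample than in every normal sample for 190 (82.3%), higher for 1 and overlapping for 40. The median change of the ratio was −1.79 on the log2 scale. The same count for each of the 232 miRNAs with reads in every sample had a median of 24.5, and 7 had a higher count than miR-184-3p, with miR-669c-5p highest at 217. The ratio of miR-184-3p to let-7c-5p, an abundant member of the let-7 family of differentiation-promoting miRNAs, was 0.00901, 0.0128 and 0.0114 in stress replicates 1 to 3 and 0.00774, 0.0164 and 0.00959 in normal replicates 1 to 3, which overlap. The ratio to miR-672-5p was 0.711, 0.805 and 0.92 in stress replicates 1 to 3 and 0.501, 0.874 and 0.811 in normal replicates 1 to 3, also overlapping. The 1 miRNA against which miR-184-3p was higher in every stress sample was miR-669c-5p, with ratios of 1.76, 2.55 and 2.62 in stress replicates 1 to 3 against 0.477, 1.31 and 1.45 in normal replicates 1 to 3. Of the 40 overlapping miRNAs 18 were themselves called lower with TMM, beside 24 of the 236 tested (10.2%). A ratio overlaps most readily where the other miRNA fell about as much, so this excess was largely set by how the 40 were picked. The ratios share the miR-184-3p counts and are not independent of each other.

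**Figure D4:**
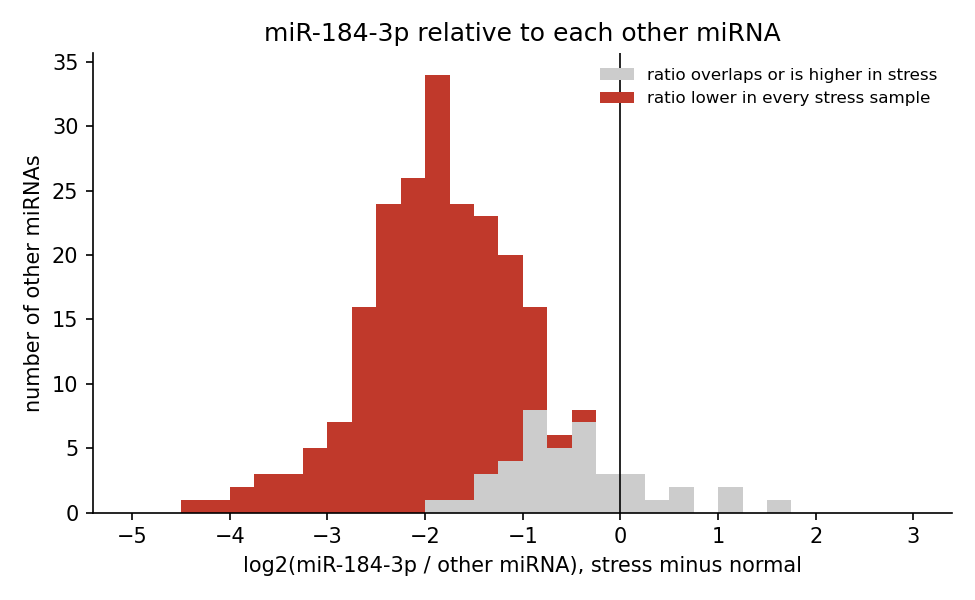
Change of the ratio of miR-184-3p to each of 231 other miRNAs, stress minus normal on the log2 scale (x axis), as the number of miRNAs per bin (y axis); red marks the 190 ratios lower in every stress sample than in every normal sample. Most of the distribution lies below 0, around its median of −1.79.

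The miRNAs whose levels ran most like miR-184-3p over the 6 samples were taken by Pearson's r of log2 TMM-scaled CPM. They were miR-871-3p (r = 0.98), miR-485-5p (0.98), miR-183-5p (0.97), miR-423-5p (0.97), miR-672-5p (0.97), miR-743b-5p (0.94), miR-669c-5p (0.94) and miR-222-3p (0.94). These r values describe 6 samples in 2 groups and mostly reflect the step between the groups, and 23 of the 235 other miRNAs reached 0.9. miR-871-3p, an X-linked testis miRNA, had 315, 259.5 and 284 CPM in stress replicates 1 to 3 and 740, 1028 and 499.9 CPM in normal replicates 1 to 3, with normal replicate 2 highest and replicate 3 lowest, as for miR-184-3p. miR-485-5p, from the imprinted Dlk1-Dio3 cluster, had 5.93, 8.46 and 8.63 CPM in stress replicates 1 to 3 and 37.1, 32.9 and 21.6 CPM in normal replicates 1 to 3. It was also the nearest by distance between centred profiles (root mean square 0.21), so it was close in the size of the step as well. Its likeness rests on few reads, 8, 16 and 12 in stress replicates 1 to 3 and 31, 25 and 57 in normal replicates 1 to 3. miR-183-5p followed miR-184-3p in shape but with a smaller step, at 5325, 5735 and 5941 CPM in stress replicates 1 to 3 and 8723, 11679 and 8385 CPM in normal replicates 1 to 3. On shares of the miRNA reads the r of miR-871-3p was 0.92 and that of miR-485-5p 0.94, but miR-183-5p fell out, at 0.06. Of the 8, 5 were also among the first 8 on shares.

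**Figure D5:**
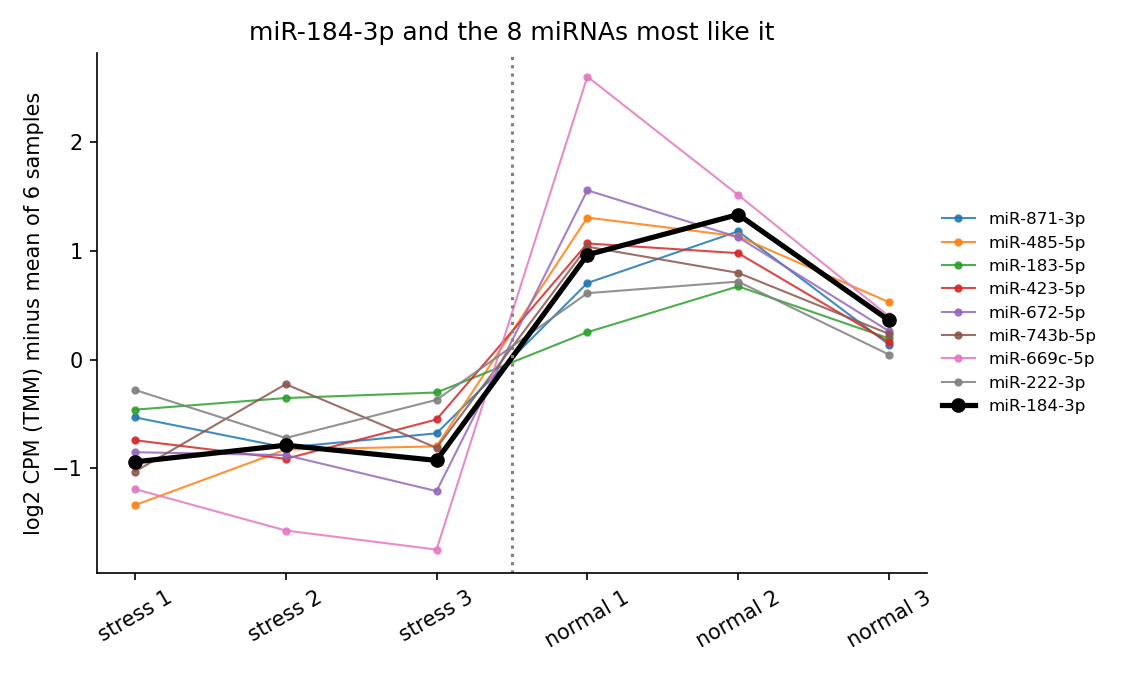
Log2 TMM-scaled CPM minus the mean over the 6 samples (y axis) in each sample (x axis) for miR-184-3p (black) and the 8 miRNAs with the highest Pearson r with it; lines join the points of 1 miRNA and carry no order. Every line is lower in the 3 stress samples, and miR-669c-5p has a larger step than miR-184-3p.

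The sequences of 4 of these miRNAs are shown to set their seeds (capitals) beside that of miR-184-3p; they are as deposited.
miR-871-3p: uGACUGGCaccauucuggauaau
miR-183-5p: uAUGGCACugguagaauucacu
miR-423-5p: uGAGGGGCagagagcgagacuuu
miR-672-5p: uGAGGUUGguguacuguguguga
None of the 8 shares bases 2 to 8 with miR-184-3p. This was fixed beforehand, since no other deposited miRNA has these bases as its seed. Their likeness is therefore one of level over these samples only. miR-184-3p is rich in G, at 40.9% of its bases, against a median of 27.3% over the tested miRNAs, 13 of which have a higher share. Among the 37 other tested miRNAs within 5 percentage points of its G share, 12 were called lower and 1 higher (median log2 fold change −0.74, against 0.00 over the 236 tested, of which 10.2% were called lower and 2.54% higher). The part of base composition in the values of miR-184-3p was not tested.

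The miRNAs of other imprinted loci were described as lists, by counts and medians. miR-335, miR-296, miR-298 and miR-483, from loci outside the 2 large imprinted clusters, had 0 tested features (miR-675 was not analysed here) and together made 21.01 to 29.7 RPM in stress and 6.29 to 17.5 RPM in normal samples. On this scale 134 of the 236 tested miRNAs (56.8%) were likewise higher in every stress sample. The sum rests on few reads, and miR-335-5p and miR-483-5p had no read in 3 or more of the 6 samples. Of 9 tested features of the Dlk1-Dio3 cluster 1 fell, 0 rose and 8 did not pass (median −0.50, against 0.00 over all 236), a share near the 10.2% called lower over all tested miRNAs. The one that fell was miR-485-5p (−1.94 ± 0.40 SE, adjusted p = 0.0094 in edgeR; not called with the sum of the 3 classes, adjusted p = 0.48), while miR-127-3p, which is transcribed antisense to the retrotransposon-derived gene Rtl1, stood at −0.83 ± 0.37 and miR-379-5p at 0.03 ± 0.34 (adjusted p = 0.15 and 0.97 in edgeR). The most abundant tested one, miR-127-3p, stood below miR-184-3p in level, at 323 ± 54.9 CPM in stress and 574 ± 298 CPM in normal samples (SD, n = 3 each).

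miRNAs of the eye and the islet, tissues in which miR-184 is abundant, were counted in the same way. Of 9 tested features 1 fell, 0 rose and 8 did not pass (median −0.44), a share near the 10.2% called lower over all 236. As a share of the miRNA reads the list ran the other way, at 28649 to 30888 RPM in stress and 22758 to 26627 RPM in normal samples, without overlap. So did most miRNAs: 134 of the 236 tested (56.8%) were higher in every stress sample on that scale. miR-183-5p, a miRNA of sensory cells, fell by 0.76 ± 0.22 on the log2 scale (adjusted p = 0.044 in edgeR). This call was lost without any 1 of 5 samples (adjusted p from 0.051 to 0.15) and was kept without normal replicate 3 (adjusted p = 0.041). It was not made by DESeq2 (adjusted p = 0.057), and with the miRNA total the estimate was 0.02. Its cluster partner miR-182-5p stood at −0.35 ± 0.23 and the islet miRNA miR-375-3p at −0.57 ± 0.23, neither past the threshold (adjusted p = 0.30 and 0.12 in edgeR). Another member, miR-205-5p, went the other way, at 0.90 ± 0.28 (adjusted p = 0.051 in edgeR). With TMM it was higher in every stress sample than in every normal sample, as were 44 of the 236 tested (18.6%). Its r with miR-184-3p was −0.98, the most negative of the tested miRNAs. Of 19 tested male germ cell features 3 fell, 0 rose and 16 did not pass (median −0.29), beside 10.2% called lower over all 236. The estimates were −1.40 ± 0.31 for miR-871-3p, −1.34 ± 0.36 for miR-743b-5p and −1.31 ± 0.38 for the feature that joins miR-465a-3p, miR-465b-3p and miR-465c-3p (adjusted p = 0.016, 0.032 and 0.044 in edgeR). All 3 calls were lost with the miRNA total (adjusted p = 0.11, 0.19 and 0.24 in edgeR). Single libraries also decided them. Leaving out stress replicate 2 or 3 ended the call of miR-871-3p (adjusted p = 0.059 and 0.053 in edgeR). That of miR-743b-5p ended without stress replicate 1 or 3 or normal replicate 1 or 2 (adjusted p = 0.086, 0.10, 0.11 and 0.078 in edgeR), and that of the joined miR-465 feature without stress replicate 2 or 3 or normal replicate 1 or 2 (adjusted p = 0.13, 0.14, 0.11 and 0.065 in edgeR).

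Markers of several other cells that a sperm sample can hold took a larger share of the miRNA reads in stress samples, as 56.8% of the tested miRNAs did without overlap. Smooth muscle, stromal and endothelial markers summed to 9337 to 10885 RPM in stress and 2683 to 4964 RPM in normal samples, and 2 of 8 tested features rose, 0 fell and 6 did not pass with TMM (median 0.52), beside 2.54% called higher over all 236. They were miR-145a-5p (1.96 ± 0.35, adjusted p = 0.0072 in edgeR) and miR-199a-3p/miR-199b-3p (1.29 ± 0.30, adjusted p = 0.017 in edgeR, and 0.053 without stress replicate 3). Neither was called with the sum of the 3 classes (adjusted p = 0.063 and 0.41 in edgeR). The miR-145a-5p estimate rests on few reads, 10, 18 and 32 in normal replicates 1 to 3. In stress replicates 1 to 3 it had 82, 120 and 78. Epithelial markers, which the epididymal lining expresses, summed to 29294 to 32290 RPM in stress and 12485 to 17676 RPM in normal samples, with 0 of 8 past the threshold with TMM (median 0.41). Leukocyte markers summed to 1355 to 1894 RPM in stress and 359.9 to 814 RPM in normal samples, with 0 of 5 past it with TMM (median 0.87). Scaled to the miRNA total, 96 of the 236 tested miRNAs were called higher. Among them were the epithelial miR-200b-3p and the leukocyte miR-146a-5p and miR-150-5p (adjusted p = 0.012, 0.0092 and 0.019 in edgeR). The leukocyte miR-223-5p was not called there (adjusted p = 0.93 in edgeR). Blood markers overlapped, at 268 to 817 RPM in stress and 341 to 1018 RPM in normal samples, with 0 of 3 past it (median −1.47). Neuronal markers summed to 1402 to 1576 RPM in stress and 819.6 to 1511 RPM in normal samples, which overlap, and 1 of 4 fell, miR-128-3p (−1.12 ± 0.30, adjusted p = 0.031 in edgeR, and 0.053, 0.13, 0.10 and 0.060 without stress replicate 1, 2 or 3 or normal replicate 1), beside 10.2% called lower over all 236. The miR-128-3p call was also lost with the miRNA total, with miRNA and piRNA reads and with the sum of the 3 classes (adjusted p = 0.35, 0.32 and 0.76 in edgeR), and scaled to the miRNA reads outside let-7 and miR-148a-3p (adjusted p = 0.071). The neuronal miR-124-3p, miR-138-5p and miR-219a-5p, the leukocyte miR-142b and the blood miR-144-3p had no read in 3 or more of the 6 samples. The part of other cells in the lower share of miR-184-3p was not tested.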

How the data were processed

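Members and lists were chosen with earlier results of these data known. The labels' protocols name TRIzol extraction and an Illumina TruSeq RNA library kit. Bowtie is named in the submitters' processing notes, with no version. Genome build, read filters and counting method: not given in the sources used here. Expected counts fill the miRNA table deposited by the authors (92.0% of values whole within 0.001), and were rounded. The deposited piRNA and tsRNA tables hold RPM, scaled by the authors within each table, and served here for depth. piRNA reads (72652 to 100913 per sample) were recovered from the smallest value of each column, of which every value was a whole multiple. tsRNA reads (1149648 to 2756213) are an estimate from a common step in each column, 100 steps being taken as 1 read. Features passing filterByExpr (minimum count 10) were fitted with edgeR 4.0.16 in R 4.3.3 (TMM, glmQLFit, glmQLFTest, two-sided, Benjamini-Hochberg over 236 features, threshold 0.05), tested on simulated data. SE is the size of the log2 fold change over the square root of F, and fold changes are stress minus normal. Likeness used log2 CPM with a prior count of 2. Named were miR-184-3p, the 8 miRNAs most like it, the 4 next above and the 4 next below it in mean share, the most abundant miRNA, and up to 3 of each list (called ones first, then by abundance). After their values were seen, let-7c-5p, miR-34c-5p, miR-205-5p, miR-335-5p, miR-483-5p and the markers at 0 were named too. Alternatives were other scalings and filters, DESeq2 1.42.0, leaving out each sample, and a block by replicate number. Folding used RNAfold 2.7.2.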

Additional observations from a re-analysis of the deposited data

How the results depend on the processing

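The log2 difference of miR-184-3p, −1.82 in edgeR with TMM, was negative in 16 of 16 alternatives and moved by less than the spread between replicates (0.35, 1 SD on the log2 scale) in 13. It moved by more when scaled to the miRNA total (−1.03), to miRNA and piRNA reads (−1.05) and to the sum of the 3 classes (−1.38), which by construction do not centre the miRNAs on their median. Leaving out 1 sample gave −2.02 to −1.56. The 24 calls lower in stress became 10 with the miRNA total, 10 with miRNA and piRNA reads and 3 with the sum of the 3 classes, and 13 to 33 with 1 sample left out. The 6 calls higher became 16 with RLE, 10 with upper-quartile factors, 96 with the miRNA total, 16 scaled to the miRNA reads outside let-7 and miR-148a-3p, 89 with miRNA and piRNA reads, 3 with the sum of the 3 classes, 19 without a filter, 12 with a minimum count of 30, 17 with DESeq2, and 4 to 22 with 1 sample left out (22 without normal replicate 3). Apart from the scalings the cause of these changes was not tested. Of the 8 miRNAs most like miR-184-3p, 5 were shared with the first 8 on shares and 5 with the first 8 by distance. The replicate numbers are not shown to pair samples: deviations of same-numbered samples correlated at r = 0.11, −0.21 and 0.12. With a replicate block the miR-184-3p difference was −1.77, with 21 calls lower and 7 higher. Its counts of 726 to 3498 reads leave counting error small beside the spread of the normal samples; at these depths 3 reads, the limit that a count of 0 allows, are 0.978 to 2.97 RPM.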
